A study of Rattus norvegicus with 12 samples.

Results

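The 9 genes described here encode enzymes that turn squalene into cholesterol: Sqle, Lss, Cyp51, Tm7sf2, Msmo1, Nsdhl, Hsd17b7, Sc5d and Dhcr7. They were picked by name, and every array probe whose RefSeq accession belongs to one of them was read, which gave 11 probes. All 9 were well above background on all 12 arrays and stood among 21874 tested transcripts, of which 11400 had a gene symbol and 10474 were known only by their accession on the array. Liver RNA came from adult male Wistar rats, 6 fed an isocaloric low protein diet with 5% casein and 6 fed a control diet with 14% casein, both for 4 weeks. Each rat had its own single-colour Agilent array. The labels name no transgene, drug or other treatment beside the diets.

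Cholesterol is built in the liver from acetyl-CoA through mevalonate to squalene, a linear hydrocarbon. Squalene is then oxidised, folded into the ring system of lanosterol, stripped of methyl groups and given its final double bond. Most of these steps take place in the membrane of the endoplasmic reticulum. The genes of the pathway are known targets of the transcription factor SREBP-2, which is released from that membrane when sterols are scarce and held there by the Insig proteins when they are plentiful.

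RefSeq promoter windows on the GRCr8 build, 250 bases before to 50 bases after each start, were found for 8 of the 9 genes. Those of the 4 genes that fell with the low protein diet are printed below so that their elements can be set side by side, together with that of Msmo1, which did not pass the test. Capitals mark NF-Y boxes (CCAAT) and Sp1 boxes (GGGCGG) on either strand, read from the strand of the gene.

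Lss, chr20:12118181-12118480, minus strand: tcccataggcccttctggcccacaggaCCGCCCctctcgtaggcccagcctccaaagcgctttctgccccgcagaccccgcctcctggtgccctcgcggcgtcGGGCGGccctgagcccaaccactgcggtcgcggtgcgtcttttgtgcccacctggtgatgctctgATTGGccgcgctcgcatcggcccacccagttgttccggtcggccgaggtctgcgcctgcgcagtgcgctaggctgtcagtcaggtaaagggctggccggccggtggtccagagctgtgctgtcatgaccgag

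Cyp51, chr4:30991443-30991742, plus strand: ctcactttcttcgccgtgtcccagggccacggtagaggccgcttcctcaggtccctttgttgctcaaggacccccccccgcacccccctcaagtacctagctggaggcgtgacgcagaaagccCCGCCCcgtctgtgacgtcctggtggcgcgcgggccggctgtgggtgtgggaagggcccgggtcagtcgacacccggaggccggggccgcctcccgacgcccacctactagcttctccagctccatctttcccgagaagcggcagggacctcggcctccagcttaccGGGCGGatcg

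Tm7sf2, chr1:212789492-212789791, minus strand: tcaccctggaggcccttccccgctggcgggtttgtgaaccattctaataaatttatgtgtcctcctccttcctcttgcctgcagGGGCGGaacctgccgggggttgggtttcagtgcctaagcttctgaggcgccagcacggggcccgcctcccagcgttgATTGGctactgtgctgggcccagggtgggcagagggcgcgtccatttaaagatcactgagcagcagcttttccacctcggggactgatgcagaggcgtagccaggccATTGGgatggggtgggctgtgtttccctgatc

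Sc5d, chr8:51538228-51538527, minus strand: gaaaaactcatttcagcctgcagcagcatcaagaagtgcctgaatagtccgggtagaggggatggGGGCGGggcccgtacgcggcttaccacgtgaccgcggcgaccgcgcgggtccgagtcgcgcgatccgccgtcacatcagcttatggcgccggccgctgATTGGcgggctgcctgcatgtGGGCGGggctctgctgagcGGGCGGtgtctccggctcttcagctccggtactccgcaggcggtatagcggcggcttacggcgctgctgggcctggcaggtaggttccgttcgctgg

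Msmo1, chr16:29746863-29747162, plus strand: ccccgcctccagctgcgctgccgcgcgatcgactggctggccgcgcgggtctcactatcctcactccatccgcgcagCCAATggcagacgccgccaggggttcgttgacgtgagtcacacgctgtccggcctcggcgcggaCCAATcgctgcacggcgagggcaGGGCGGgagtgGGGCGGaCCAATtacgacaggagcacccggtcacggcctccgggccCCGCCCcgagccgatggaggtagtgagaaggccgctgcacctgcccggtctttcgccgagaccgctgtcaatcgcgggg

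Of the 8 windows, 6 held an NF-Y box and 7 a Sp1 box, against 37.5% and 33.1% of all 33469 rat promoter windows of that length. The sterol regulatory element was searched as TCACNCCAC on both strands; it was found in 0 of the 8 and in 1.12% of all windows. In 5 genes an NF-Y box on the reverse strand began within a few bases of the same place: 82 bases before the start in Lss, 86 in Hsd17b7, 87 in Sc5d, 89 in Tm7sf2 and 91 in Nsdhl. Hsd17b7 held further reverse-strand boxes at 176 and 25 bases, and Nsdhl at 208, 128 and 119. The share of all windows with a box at that place was not counted. Cyp51 and Dhcr7 held no NF-Y box in the window, and both Sp1 boxes of Dhcr7 overlap each other. Msmo1 held 3 of each box and Nsdhl held 5 NF-Y boxes and no Sp1 box. Genes with and without an NF-Y box stood on both sides of the test described next. These matches describe letters only, and binding was not measured.

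Transcripts of the squalene to cholesterol enzymes were lower in low protein livers, by 2.50-fold for Tm7sf2 and by 1.43-fold to 1.80-fold for Lss, Cyp51 and Sc5d. These 4 of 9 genes (44.4%) passed limma's test at an adjusted p under 0.05, and 0 rose. Among all transcripts tested, 3.05% passed as lower and 3.48% as higher, and among the 11400 with a gene symbol 3.1% and 3.56% did. All 9 changes lay below 0, where 55.1% of all transcripts did. Their median log2 change was -0.52, beside -0.03 over all transcripts. The 9 genes were read on the same arrays, so their signs are not independent. The diets did not overlap in the same 4 genes, against 1.98% of all transcripts that were lower without overlap. In bulk liver RNA, less transcript per cell and fewer cells that carry it cannot be told apart.

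**Figure D1:**
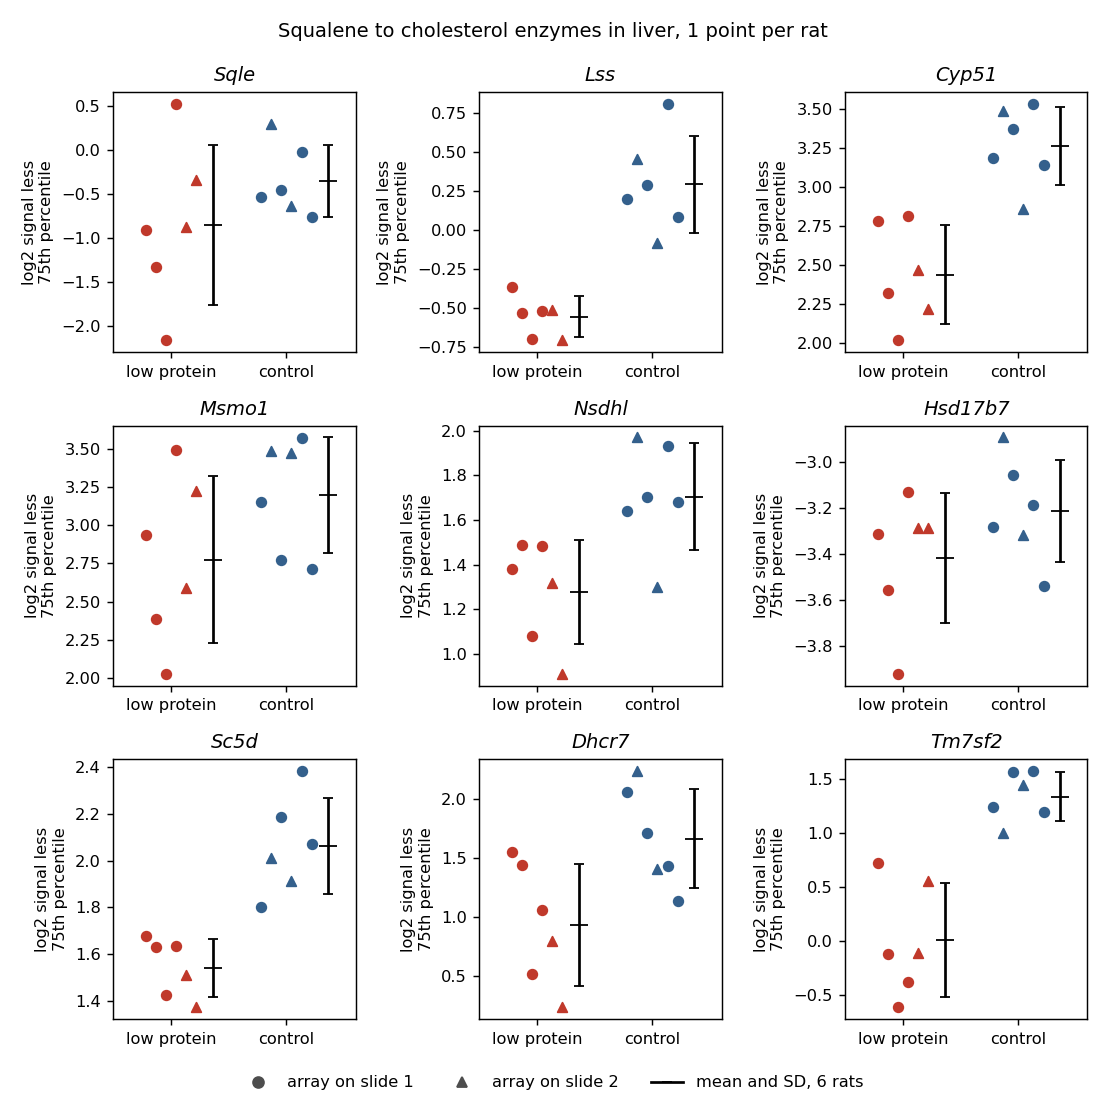
Signal of the 9 enzymes in each rat, as log2 of the processed intensity less the 75th percentile of its array (vertical axis), for low protein (left) and control (right) rats; circles and triangles mark the 2 slides, and bars the mean and SD of 6 rats. In Lss, Cyp51, Sc5d and Tm7sf2 all 6 low protein rats lie below all 6 control rats, and in Sqle the low protein rats run from -2.16 to 0.52.

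Levels below are log2 of the processed intensity less the 75th percentile of the same array, so a level of 0 equals that percentile. Levels of different genes come from different probes and are not set against each other. Changes are the low protein mean minus the control mean, with the standard error of limma's fit and 6 rats per diet. The genes follow in the order of the pathway.

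Sqle is squalene epoxidase, which adds the first oxygen and is regarded as a control point of the pathway. Its level was -2.16 at the lowest, -0.89 at the median and 0.52 at the highest in low protein rats, against -0.76, -0.49 and 0.30 in control rats. The diets overlapped, since low protein rat 4 had the highest level of all 12 rats and low protein rat 3 the lowest. The change was -0.50 ± 0.36 (limma adjusted p = 0.481), with an interval at 95% of -1.29 to 0.29. Low protein rats differed among themselves by up to 6.41-fold and control rats by up to 2.08-fold. The probe of Sqle was spotted 10 times on each array, and the SD over those spots was 0.09 at the median low protein array and 0.08 at the median control array. The SD over rats was 0.90 on the low protein diet and 0.40 on the control diet; the spots of 1 array do not hold the variation between arrays.

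Lss, lanosterol synthase, closes the rings of oxidised squalene. Its level was -0.70 at the lowest, -0.52 at the median and -0.36 at the highest in low protein rats, against -0.08, 0.24 and 0.81 in control rats. Every low protein rat lay below every control rat. The change was -0.85 ± 0.13 (limma adjusted p = 0.00332), and a second probe of the gene gave -0.82 ± 0.13. Low protein rats spanned 1.27-fold and control rats 1.86-fold.

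Cyp51 is the cytochrome P450 that removes the first methyl group from lanosterol. Its level was 2.02 at the lowest, 2.40 at the median and 2.82 at the highest in low protein rats, against 2.86, 3.28 and 3.53 in control rats. The groups did not overlap, although the highest low protein rat and the lowest control rat lay close together. The change was -0.82 ± 0.16 (limma adjusted p = 0.00903), and the second probe gave -0.80 ± 0.15. When every kept probe was tested as a row of its own, 6 of the 11 probes of the pathway passed as lower, against 3.23% of all kept probes, and both probes of Lss and of Cyp51 were among the 6.

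Tm7sf2 is a sterol reductase that saturates the double bond left by Cyp51, a reaction that the lamin B receptor Lbr also carries out. Its level was -0.61 at the lowest, -0.11 at the median and 0.72 at the highest in low protein rats, against 1.00, 1.34 and 1.57 in control rats. All 6 low protein rats lay below the lowest control rat. The change, -1.32 ± 0.21 (limma adjusted p = 0.00396), was the largest of the 9 in size. Differences between the changes of 2 enzymes were not tested. Low protein rats spanned 2.52-fold, against 1.48-fold among control rats, and rats 1 and 6 were the highest on the low protein diet.

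**Figure D2:**
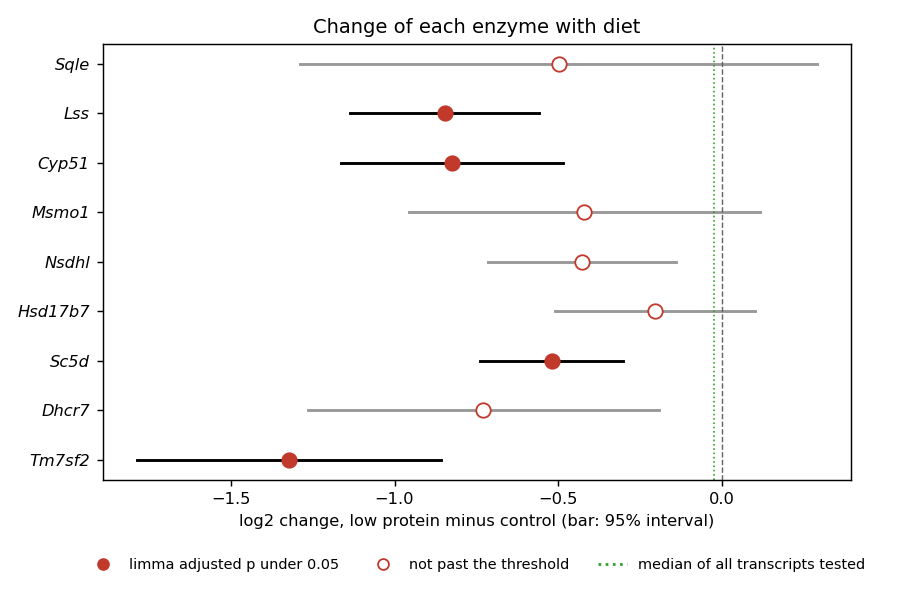
Log2 change of each enzyme, low protein minus control (horizontal axis), with its 95% interval from limma, 6 rats per diet; filled points passed at an adjusted p under 0.05 and the dotted line is the median of all transcripts tested. All 9 points lie left of 0, from -1.32 for Tm7sf2 to -0.20 for Hsd17b7, and the intervals of Sqle, Msmo1 and Hsd17b7 reach across 0.

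The next 3 enzymes act in turn to remove the pair of methyl groups at the fourth carbon of the sterol, and none of them passed the test. Msmo1, the methyl sterol oxidase that begins this removal, had levels of 2.03, 2.76 and 3.49 (lowest, median and highest) in low protein rats, against 2.71, 3.31 and 3.57 in control rats. Its change was -0.42 ± 0.25 (limma adjusted p = 0.361, interval -0.96 to 0.12), with the diets overlapping over most of their range. Its probe was spotted 10 times too, with a median SD over spots of 0.08 on both diets, against an SD over rats of 0.54 on the low protein diet and 0.38 on the control diet.

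Nsdhl, the dehydrogenase that follows, had levels of 0.91, 1.35 and 1.49 in low protein rats, against 1.30, 1.69 and 1.97 in control rats. Only control rat 4 reached into the low protein range. The change was -0.43 ± 0.13 (limma adjusted p = 0.0754, interval -0.71 to -0.14), and without control rat 4 it was -0.51 with an adjusted p of 0.0369. It also passed with normexp background correction (-0.47, adjusted p = 0.0252), in the deposited value table (-0.48, adjusted p = 0.0304) and with a trended, robust spread (adjusted p = 0.0491). These were the only 4 of 25 alternative settings in which Nsdhl passed. It missed the threshold when any 1 of 11 of the 12 rats was left out, and without scaling between arrays (-0.30, limma adjusted p = 0.268).

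Hsd17b7, the ketoreductase of this step, gave the dimmest probe, with processed intensities of 73.3 to 141 in low protein rats and 84.6 to 141 in control rats. Its levels were -3.92, -3.30 and -3.13 in low protein rats, against -3.54, -3.24 and -2.89 in control rats. The diets overlapped and the change was -0.20 ± 0.14 (limma adjusted p = 0.451, interval -0.51 to 0.10).

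Sc5d, the desaturase that places a double bond in the second ring, had levels of 1.37, 1.57 and 1.68 in low protein rats, against 1.80, 2.04 and 2.38 in control rats. The groups did not overlap, and the range among rats on the log2 scale was 0.30 on the low protein diet and 0.58 on the control diet. The change was -0.52 ± 0.10 (limma adjusted p = 0.0102). Without scaling between arrays it was -0.39 with an adjusted p of 0.124, a setting that also moved the median of all transcripts to 0.11.

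Dhcr7, the reductase that makes cholesterol from its direct precursor, had levels of 0.23, 0.93 and 1.55 in low protein rats, against 1.13, 1.57 and 2.23 in control rats. The diets overlapped, with low protein rats 1 and 2 above control rats 4, 5 and 6. The change was -0.73 ± 0.25 (limma adjusted p = 0.103, interval -1.27 to -0.19). It did not pass the threshold although it was larger in size than that of Sc5d, whose SD over rats was 0.12 on the low protein diet against 0.52 for Dhcr7.

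The arrays lay on 2 slides with a scan time each, slide 1 with 4 rats of each diet and slide 2 with 2 of each. Taken apart, slides 1 and 2 gave changes of -0.87 and -0.80 for Lss, -0.82 and -0.83 for Cyp51, -1.49 and -0.997 for Tm7sf2, and -0.52 and -0.52 for Sc5d. Among the others they gave -0.53 and -0.44 for Sqle, -0.34 and -0.57 for Msmo1, -0.38 and -0.52 for Nsdhl, -0.22 and -0.18 for Hsd17b7, and -0.44 and -1.31 for Dhcr7. All 9 changes were thus below 0 on both slides. With limma on 1 slide alone, 0 of the 9 passed on either slide, where 164 and 12 of all transcripts did; at an unadjusted p under 0.05 there were 5 on each, beside 15.3% and 10.8% of all transcripts. With slide as a block the same 4 genes passed, at adjusted p-values of 0.00453 for Lss, 0.0116 for Cyp51, 0.0062 for Tm7sf2 and 0.00958 for Sc5d. They also passed when any 1 of the 12 rats was left out. On slide 1 the low protein arrays all lay in row 2 and the control arrays in row 1, so row and diet cannot be told apart there, while on slide 2 all 4 arrays lay in row 1.

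Low protein rats differed from one another in how many enzymes lay below the range of the control rats. In low protein rat 3 all 9 did, in rats 2 and 5 it was 7, in rat 6 it was 6 and in rats 1 and 4 it was 5. Rat 3 was also below the mean of its diet in all 9 enzymes, by 0.50 on average, while rats 1 and 4 were above that mean in 8. Among control rats, rats 2 and 5 averaged 0.23 above and rat 6 averaged 0.25 below their diet mean.

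**Figure D3:**
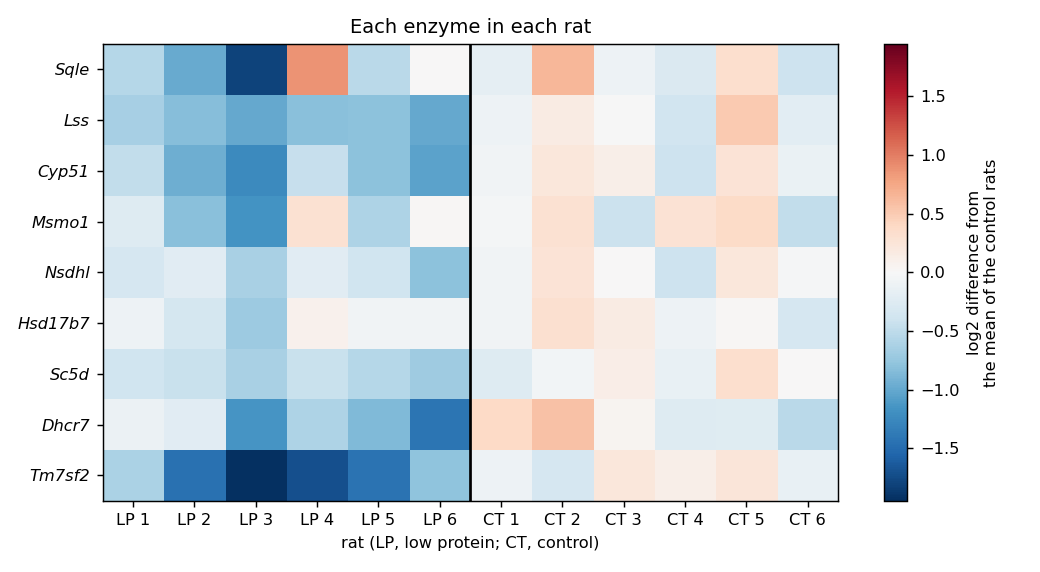
Log2 difference of each enzyme (rows) in each rat (columns, 6 low protein then 6 control) from the mean of the control rats, blue for lower and red for higher. The low protein columns are blue in the rows of Lss, Cyp51, Sc5d and Tm7sf2, and low protein rat 4 stands out in red for Sqle.

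Across the 6 low protein rats, Sqle went with Msmo1 (Pearson r = 0.96, Spearman rho = 0.94) and with Hsd17b7 (r = 0.92, rho = 1.00), and Sc5d with Dhcr7 (r = 0.97, rho = 0.94). These sets were formed from high r in the same rats. Between them r ran from 0.01 for Msmo1 and Dhcr7 to 0.34 for Hsd17b7 and Sc5d. Lss and Nsdhl, placed in neither, had r = 0.88 each with Dhcr7, and 0.24 and 0.23 with Sqle. Cyp51 had r = 0.69 with Sqle and 0.64 with Dhcr7. In control rats the same pairs between sets ran from 0.05 for Msmo1 and Sc5d to 0.76 for Hsd17b7 and Dhcr7. Differences between correlations were not tested. Across the 6 control rats Cyp51 went with Nsdhl (r = 0.96, rho = 0.89) and with Lss (r = 0.91, rho = 1.00), and Sc5d and Dhcr7 had r = -0.39. By exact permutation tests over the rats (two-sided), 0 of the 72 relations, 36 pairs in each diet, passed after Benjamini-Hochberg adjustment, by r or by rho. The adjusted p by r was 0.10 for Sqle with Msmo1, Sqle with Hsd17b7, Sc5d with Dhcr7 and Cyp51 with Nsdhl, and their raw p-values were 0.00417, 0.00972, 0.00417 and 0.00556. The adjusted p by rho for the same 4 was 0.20, 0.10, 0.20 and 0.24, and the smallest p that 6 rats allow is 0.00278. Without the 2 rats farthest from the median of the first gene, r of these 4 was 0.91, 0.80, 0.88 and 0.84. In low protein rats the adjusted p by r was also 0.10 for Msmo1 with Hsd17b7, Nsdhl with Sc5d and Lss with Sc5d. Their r was 0.89, 0.93 and 0.90, and without the 2 rats it dropped to 0.71, 0.59 and 0.54. Over all 36 pairs the median r was 0.45 in low protein rats and 0.40 in control rats, and both genes of a pair share each array.

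The genes outside the pathway whose scatter about their diet means was most like that of the 9 enzymes' mean were Tent5c (r = 0.90 over 12 rats), the proteasome subunit Psmb4 (r = 0.89), the proteasome-bound deubiquitinase Usp14 (r = 0.88), the clock gene Per1 (r = 0.87) and the zinc finger gene Zfp354a (r = 0.86). They are the top 5 of 11189 genes ranked, so these values are a description with no test. None of the 5 passed limma's test of diet, with changes of 0.10 ± 0.22 for Tent5c, -0.07 ± 0.07 for Psmb4, 0.07 ± 0.08 for Usp14, -0.29 ± 0.55 for Per1 and 0.69 ± 0.73 for Zfp354a. The sign turned for Psmb4 without scaling (0.07), for Usp14 on slide 2 alone (-0.04) and for Per1 without low protein rat 3 (0.14). Adjusted p-values for these genes were 0.623 to 0.839.

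Of 6 other proteins of the same steps, Lbr had no probe matched here and 5 were tested, with 1 lower and none higher and a median change of -0.08. Ebp, the isomerase that acts just before Sc5d, fell, with levels of 3.86, 4.05 and 4.30 in low protein rats against 4.44, 4.56 and 4.74 in control rats. Its change was -0.52 ± 0.09 (limma adjusted p = 0.00448), close to that of Sc5d in size. Erg28, a scaffold of the methyl-removing enzymes, was at -0.08 ± 0.13 (adjusted p = 0.76), and Pgrmc1, a heme protein that binds Cyp51, at 0.24 ± 0.09 (adjusted p = 0.127). Faxdc2, named for its fatty acid hydroxylase domain, was at -0.53 ± 0.23 (adjusted p = 0.199).

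Upstream, 3 of the 10 measured genes from acetyl-CoA to squalene were lower and none higher, with all 10 below 0 and a median change of -0.30. Pmvk, phosphomevalonate kinase, fell by 1.17 ± 0.21 on the log2 scale (limma adjusted p = 0.0072). Acat2, which joins acetyl groups (-0.81 ± 0.20, adjusted p = 0.0304), and Fdps, farnesyl diphosphate synthase (-0.68 ± 0.16, adjusted p = 0.0282), were the others. Acat2 missed the threshold when any 1 of 6 rats was left out and Fdps when any 1 of 4 was.

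**Figure D4:**
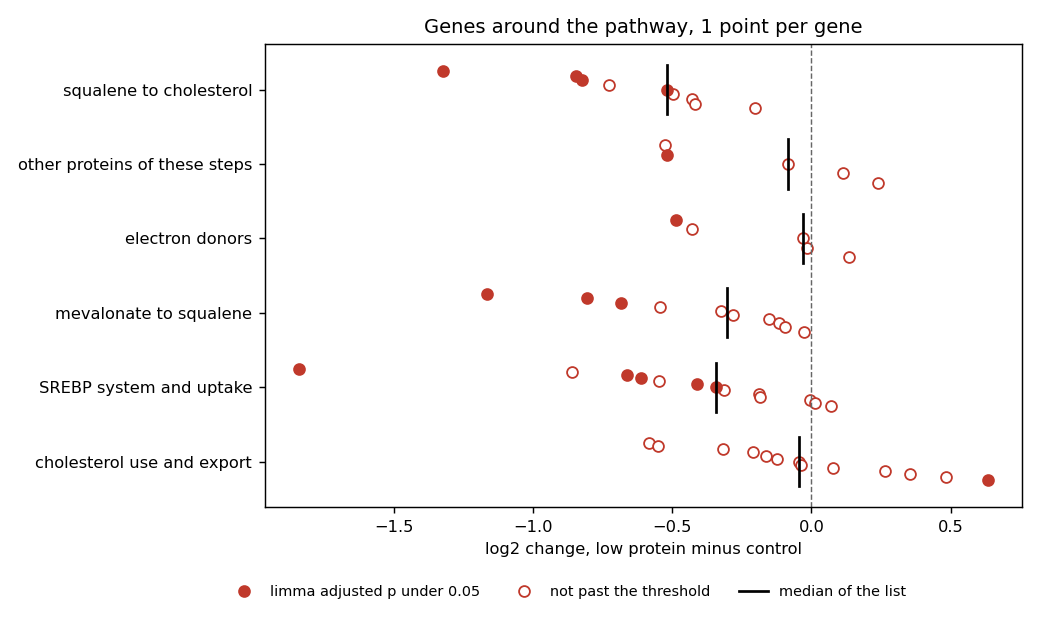
Log2 change, low protein minus control (horizontal axis), of each tested gene in the squalene to cholesterol set and 5 related lists, 1 point per gene; filled points passed limma's test at an adjusted p under 0.05 and black lines are list medians. The median is -0.52 for the 9 enzymes, -0.30 for the mevalonate genes, -0.34 for the SREBP system and -0.04 for cholesterol use and export.

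In the system that senses sterols and brings them into the cell, 5 of 13 genes were lower and none higher, with a median change of -0.34. Stard4, a cytosolic sterol carrier, fell (-0.66 ± 0.10, limma adjusted p = 0.00237), as did Scap, the escort protein of SREBP (-0.34 ± 0.07, adjusted p = 0.0135). Insig1, which retains SREBP in the endoplasmic reticulum, had levels of 1.67, 3.31 and 4.79 in low protein rats against 4.27, 4.94 and 5.72 in control rats. Its change was -1.84 ± 0.49 (adjusted p = 0.0437), and it missed the threshold when any 1 of 11 of the 12 rats was left out. Npc2, a lysosomal sterol carrier (-0.41 ± 0.10, adjusted p = 0.0315), missed it when any 1 of 7 rats was left out. Srebf2, the gene of SREBP-2 itself, was at 0.01 ± 0.10 (adjusted p = 0.967). Srebf1, in the same list, was at -0.86 ± 0.25 (adjusted p = 0.0591, interval -1.40 to -0.32) and did not pass.

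Markers of the cell types of liver were read beside these values. Of 6 hepatocyte markers, 1 was lower (Apoa1, -0.84 ± 0.14, limma adjusted p = 0.00387) and all 6 changes were below 0, with a median of -0.15. Their summed level on the linear scale was 585 to 732 times the 75th percentile in low protein rats and 678 to 781 in control rats. Of 5 Kupffer cell markers none passed and all 5 were below 0 (median -0.32, 3 at an unadjusted p under 0.05), with summed levels of 12.5 to 18.5 in low protein rats and 12.4 to 26.0 in control rats. None of 5 stellate cell, 4 endothelial or 5 bile duct cell markers passed, with 1, 0 and 1 of them at an unadjusted p under 0.05. Of 2 tested lymphocyte markers, Ptprc, of all white blood cells, was lower (-0.43 ± 0.11, adjusted p = 0.0292). Their summed levels in low protein and control rats were 1.02 to 1.23 and 0.90 to 1.32 for stellate cells, 10.3 to 12.6 and 10.05 to 12.6 for endothelial cells, 0.20 to 0.33 and 0.24 to 0.42 for bile duct cells, and 0.23 to 0.30 and 0.27 to 0.39 for lymphocytes. Negative control spots had an SD between 1.18 and 1.58 intensity units on low protein arrays and between 1.11 and 1.32 on control arrays. The part of these differences in the results above was not tested.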

How the data were processed

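Agilent Feature Extraction 12.0.3.1 was run by the authors, per the file headers. Its processed intensity, as deposited, is linear and background-subtracted, with no step that puts arrays on a common scale. The series' deposited value table equals the raw median intensity at 100% of spots (tolerance 1e-06), and 0 of its columns had no sample. The values used were log2 of processed intensity less each array's 75th percentile (942 to 1317 units) over 58717 spots that were not controls. Outlier spots (453 to 739 per array) became missing values, 0 spots were saturated, and repeated spots were averaged by probe.

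Of 45598 probes, 46.5% matched a gene of GRCr8 by RefSeq accession; the headers name another build, so only promoter windows have coordinates. A probe counted as well above background where at least 50% of its spots were, and was kept with 5 such arrays of 6 in a diet; the brightest probe of a gene or accession was tested. Low protein was compared with control by the two-sided moderated test of limma 3.58.1 (R 4.3.3). P-values were adjusted by Benjamini and Hochberg's method across the 21874 tested transcripts (11400 by gene symbol, 10474 unmatched and kept under their array accession), and the code was checked on simulated data. Every adjusted p is limma's unless another test is named. Python 3.11.15, scipy 1.17.1 and matplotlib 3.10.9 served for permutation tests and figures.

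The genes and lists were chosen with earlier results of these data known. The genes named were the 9 enzymes, the 5 genes most like them, and list members by rule. In each list these were every member that passed, or else up to 2 with the smallest p. Erg28, Pgrmc1, Faxdc2, Srebf2, Srebf1, Cyp7a1, Nr1h3, Cyb5a, Por and the marker genes were named beside them after their values were seen. Some list members are counted but not reported here by name. Alternatives covered background correction, scaling, filters, probes, spread, slide, rat number and each rat left out.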

Additional observations from a re-analysis of the deposited data

How the results depend on the processing

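All 9 changes stayed below 0 under all 25 alternatives, and under each array scaling. Lss, Cyp51 and Tm7sf2 passed in 23 of the 25, all but the fits of 1 slide alone (0 enzymes on either slide), and Sc5d in 22. Fits of 1 slide have fewer arrays: slides 1 and 2 gave 164 (82 higher, 82 lower) and 12 (11 higher, 1 lower) changed transcripts, beside 1429 (761 higher, 668 lower) in all. With the replicate block, the rat number as a term, 5 enzymes passed, Dhcr7 in addition (adjusted p = 0.017), and 1411 of all transcripts (679 higher, 732 lower). The labels do not tie equal numbers together. The same-number correlation of deviations was 0.03 for rat 5, 0.10 to 0.13 for rats 2, 3, 4 and 6, and 0.26 for rat 1. Only 2 of 6 low protein rats correlated best with their own number, and rats were not paired. Between 4 and 5 enzymes passed with each rat left out, while the count over all transcripts ran from 856, without control rat 3, to 1307 (higher, 442 to 739; lower, 414 to 704). Without scaling, 891 transcripts changed (679 higher, 212 lower), and the median of all transcripts moved to 0.11; without the filter on dim probes, more transcripts were tested and 618 changed (326 higher, 292 lower). The cause of the other differences was not tested. Psmb4, Usp14 and Per1 turned sign, at 0.0668 without scaling, -0.037 on slide 2 alone and 0.139 without low protein rat 3; with each rat left out Per1 ran from -0.518 to 0.139. With 6 arrays a diet, precision rests on the number of rats.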

Other observations

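Of 13 tested genes that use, esterify or export cholesterol, 1 rose and none fell, with a median change of -0.04. Soat2, which esterifies cholesterol in liver, had levels of -1.48, -1.25 and -0.96 (lowest, median and highest) in low protein rats against -2.17, -1.91 and -1.54 in control rats, and every low protein rat lay above every control rat. Its change was 0.63 ± 0.12, or 1.55-fold higher (limma adjusted p = 0.00727), and it passed when any 1 of the 12 rats was left out. Cyp7a1, the first enzyme of bile acid synthesis, was at -0.55 ± 0.61 (adjusted p = 0.667, interval -1.88 to 0.77), and the oxysterol receptor Nr1h3 at -0.16 ± 0.09 (adjusted p = 0.332).

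Several steps of the pathway take electrons from carrier proteins of the endoplasmic reticulum. Of 5 carriers tested, Cyb5b, a cytochrome b5 of the outer mitochondrial membrane, fell (-0.49 ± 0.11, limma adjusted p = 0.0248), and it missed the threshold when any 1 of 4 rats was left out. Cyb5a, the form of the endoplasmic reticulum, was at -0.02 ± 0.09 (adjusted p = 0.942). Por, the electron donor of Cyp51 and Sqle, was at 0.13 ± 0.47 (adjusted p = 0.907), with an SD of 1.06 among control rats.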
